A study of Caenorhabditis elegans with 16 samples.

Results

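Transcripts of whole worms that had been fasted were compared with those of worms that had stayed on food, both kept at 20°C throughout. All animals were N2, the wild-type laboratory strain of Caenorhabditis elegans, grown on agar plates seeded with OP50, the standard Escherichia coli food. The fasted group spent 24 h on plates without bacteria, starting at L4, the larval stage before adulthood, and the fed group stayed with bacteria. The labels place a further 24 h of recovery after the fast, whereas the study's text has the RNA-seq worms collected as soon as the fast ended, so the time since the last meal is not settled here. Each group had 4 libraries, and 8 other libraries of the series came from fasted and fed worms heat-shocked at 35°C for 30 min. The labels do not say that the 4 libraries of a group were separate cultures, so each p-value is relative to library-to-library spread that could be technical.

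The deposited table of this comparison holds 2666 genes of the 3698 listed for the series at either temperature, and 1442 genes are listed for the heat-shocked worms. A gene is listed only where its unadjusted p was under 0.05 in the authors' own test of the same contrast. The 2666 listed genes are 17.8% of the 14982 genes over which the authors adjusted their p-values, and they hold 14.2% to 14.9% of the reads of the fasted libraries and 14.9% to 16.1% of those of the fed libraries. Since the same contrast picked the genes, counts of listed members are given as a description, and a family member outside the table has no value here. Library depth was 18062250 to 26398842 reads in the fasted group and 15859001 to 20345508 reads in the fed group.

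Food removal in C. elegans engages a broad program in the intestine, the organ that absorbs nutrients, stores fat and makes yolk. Lipid synthesis and oxidation, insulin signaling and neuropeptide signaling are all known to respond to food. A worm that passes from L4 to adulthood also completes its last molt, lays down an adult cuticle and starts to make oocytes and yolk, so feeding state and developmental stage can both change the transcripts of whole animals. In such bulk samples, fewer cells of a type and less RNA per cell cannot be told apart, nor can feeding and stage in this design.

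More transcripts were higher than lower in fasted worms. Of the listed genes, 1667 had a higher level in fasted worms and 999 a lower one, and their median log2 fold change was 0.57. In edgeR's quasi-likelihood test, with Benjamini-Hochberg adjustment over the 14982 genes, 288 genes rose and 80 fell (adjusted p under 0.05), which is 1.92% and 0.534% of the genes adjusted over. Of the listed genes, 10.8% rose, 3.0% fell and 13.8% did either, and these shares are the background for every family below. Groups did not overlap for 367 of the 368 called genes and for 1410 (52.9%) of all listed genes. A lack of overlap thus adds little to a call. The rises were smaller in size, with a median log2 fold change of 1.14, against -1.87 among the falls. Of the genes that rose, 193 did so by over 2-fold and 44 by over 4-fold, and of those that fell, 70 and 29 did. With the replicate number as a block the counts were 553 rises and 133 falls, of which 278 and 78 were also called without it. No label pairs the libraries. The pairing by number was taken from the same data, so calls gained with the block, here and below, rest on that choice.

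The split between rises and falls moved when the libraries were scaled on the listed genes alone. Such scalings, here and below, center on genes that the same contrast chose for changing. The authors' size factors, made from all genes, gave rises in 78.3% of the calls. With TMM factors from the listed genes alone there were 161 rises and 168 falls, 48.9% rises, and with DESeq2 size factors from the listed genes 143 and 603, 19.2% rises. The median log2 fold change of the listed genes was 0.57, 0.36 and 0.18 under these 3 scalings, and each change is relative to this shift. Without scaling on the listed genes, rises were 76.9% of the calls with library reads alone. They were 75.4% with DESeq2's own test on the authors' size factors. With limma on FPKM they were 78.2% and 78.7% (pseudocount of 0.1 and 1). Single libraries also moved the counts. Rises numbered 73, 220, 167 and 92 without fasted replicates 1, 2, 3 and 4, and 77, 99, 127 and 371 without fed replicates 1, 2, 3 and 4. Falls numbered 34, 39, 46 and 41 without those fasted replicates, and 44, 57, 36 and 100 without those fed replicates. In all 8 of these fits 62 rises and 27 falls were kept. The share of rises among the calls ran between 63.5% and 84.9% in these fits. Fed replicate 4 was the fed library nearest to the fasted ones for all 12 muscle genes that rose.

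**Figure D1:**
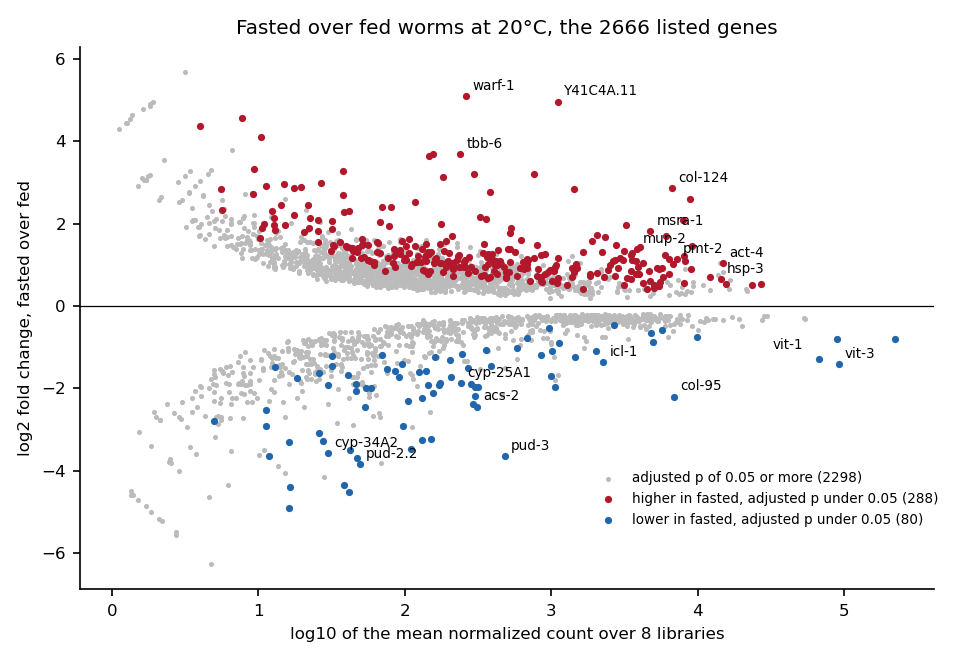
Log2 fold change of fasted over fed worms at 20°C against log10 of the mean normalized count, 1 point per listed gene, with the 288 genes that rose in red and the 80 that fell in blue. The band without points around 0 reflects the selection of the listed genes, and the vit genes stand low at the far right. The labelled warf-1, Y41C4A.11 and tbb-6 stand high, with some genes of lower counts as high or higher.

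Among genes with a mean of at least 50 normalized counts and groups that did not overlap, the largest rises were in warf-1, Y41C4A.11 and tbb-6. The gene warf-1 (chromosome IV, 7634832 to 7635707 of WBcel235) had 593, 417, 575 and 450.2 normalized counts in the fasted libraries, against 13.9, 17.8, 12 and 15.6 in the fed libraries, a 34.2-fold difference (log2 fold change 5.10 ± 0.22, adjusted p = 3.7e-06). Y41C4A.11 (chromosome III, 11719900 to 11723602) had 2749, 1994, 1968 and 1881 normalized counts in fasted worms, against 40.8, 121, 47.8 and 68.4 in fed worms (log2 fold change 4.96 ± 0.32, adjusted p = 0.00012). The β-tubulin gene tbb-6 (chromosome V, 12261804 to 12263368) had 323, 347, 616 and 489 in fasted worms, against 16.9, 46.3, 46.8 and 27.4 in fed worms (log2 fold change 3.69 ± 0.35, adjusted p = 0.00098). For all 3 genes the lowest fasted library stood several times above the highest fed library, and each call was kept with any 1 library left out. B0205.13 and F53F1.4 also rose, by 3.14 ± 0.42 and 2.85 ± 0.51 on the log2 scale (adjusted p = 0.00479 and 0.0207), and the call of F53F1.4 was lost with 1 library left out (highest adjusted p = 0.0622).

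The largest falls among genes with a mean of at least 50 normalized counts were in pud-3, pud-4, catp-3, F15E6.3, cyp-13A5, lips-14, acs-2 and ttr-44. The gene catp-3, which encodes a cation-transporting ATPase, had 30.8, 25, 24.4 and 17.3 normalized counts in fasted worms, against 92.5, 403, 369.5 and 81.1 in fed worms (log2 fold change -3.26 ± 0.55, adjusted p = 0.0159). F15E6.3 had 31.6, 6.53, 57.9 and 20.9 in fasted worms, against 104.5, 545, 376 and 71.3 in fed worms (log2 fold change -3.22 ± 0.72, adjusted p = 0.0473). The fed libraries themselves were split for both genes, with fed replicates 2 and 3 several times above fed replicates 1 and 4, and all fed libraries above all fasted ones. The transthyretin-related gene ttr-44 fell with less spread, at 118.8, 83.8, 92.5 and 83.7 in fasted worms, against 383, 620.3, 636 and 324 in fed worms (log2 fold change -2.37 ± 0.26, adjusted p = 0.00187). The calls of ttr-44 and acs-2 were kept with any 1 library left out, and those of the other 6 were lost in at least 1 such fit (highest adjusted p = 0.0706 for pud-4, 0.0721 for pud-3, 0.0641 for catp-3, 0.0851 for lips-14, 0.14 for cyp-13A5 and 0.15 for F15E6.3).

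Genes of the contractile apparatus of body wall muscle were higher in fasted worms. All 24 listed members of 35 matched were higher, 12 of them rose (against 10.8% of all listed genes), none fell, and the median log2 fold change was 0.87. Troponin T gene mup-2 had 5201, 4880.2, 6123 and 5881 normalized counts in fasted worms, against 2088, 1514, 2115 and 2744 in fed worms (log2 fold change 1.38 ± 0.17, adjusted p = 0.00349). The actin gene act-4 had 22367, 17090.5, 19785 and 20110.3 in fasted worms, against 8964, 8510.4, 8379 and 12898 in fed worms (log2 fold change 1.03 ± 0.15, adjusted p = 0.0089). The immunoglobulin-domain gene dim-1, whose product sits at muscle attachments, had 3378, 2602, 3141 and 3622 in fasted worms, against 1082, 987, 1168 and 1864 in fed worms (log2 fold change 1.32 ± 0.20, adjusted p = 0.00944). No fed library reached the lowest fasted library for any of the 3, and fed replicate 4 was the highest fed library in each. The other genes that rose were unc-87 (0.77) and cpn-3 (0.92) of the calponin family, tropomyosin lev-11 (0.89), the myosin light chains mlc-1 (1.098) and mlc-3 (0.85), troponin T tnt-2 (0.94), the attachment protein unc-95 (0.82) and the actins act-1 (0.78) and act-3 (0.59), all as log2 fold changes. The nearly identical actin genes can share reads, so their values are not independent.

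The heavy chains of the thick filament did not pass the test but had similar values. Myosin unc-54, the main body wall isoform, averaged 19214 ± 5283 normalized counts in fasted worms and 9283 ± 3129.9 in fed worms (SD, n = 4 each, log2 fold change 1.05 ± 0.24, adjusted p = 0.0549), and myo-3 averaged 1157 ± 259.9 in fasted worms and 585 ± 202 in fed worms (log2 fold change 0.98 ± 0.25, adjusted p = 0.0709). Both passed with the replicate block (adjusted p = 0.00728 and 0.0102). Paramyosin unc-15 had a log2 fold change of 0.64 ± 0.25 and the perlecan unc-52 of 1.05 ± 0.27 (adjusted p = 0.0587 and 0.00414 with the block), and each had 1 fed library, replicate 4, inside the fasted range. Summed over the 24 listed genes, the level was 7619, 5832, 7164 and 7618 CPM (counts scaled to the reads of each library) in the fasted libraries, against 3537, 3524, 3486 and 5229 in the fed libraries. Fed replicate 4 lay between the other fed libraries and the fasted ones. The 12 rises became 19 with the replicate block, 6 and 4 under the TMM and DESeq2 scalings over the listed genes, and 3 to 18 with 1 library left out, where mup-2, dim-1 and act-4 were called each time.

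Tubulins and intermediate filaments moved the same way. All 12 listed genes of 28 matched were higher, 7 rose, and the median log2 fold change was 0.89. The α-tubulin gene tba-4 had 2288, 2012, 2767 and 2289 normalized counts in fasted worms, against 807, 802, 841 and 1328 in fed worms (log2 fold change 1.31 ± 0.18, adjusted p = 0.00569), with the groups well apart. The α-tubulins tba-7 and tba-9 rose by 0.996 ± 0.20 and 2.07 ± 0.43 on the log2 scale. The touch neuron tubulins mec-7 and mec-12 had log2 fold changes of 0.90 ± 0.34 and 0.82 ± 0.22 and did not pass (adjusted p = 0.21 and 0.09). The 7 rises became 8 with the replicate block, 5 and 3 under the TMM and DESeq2 scalings over the listed genes, and 3 to 9 with 1 library left out. Basement membrane and gap junction genes had 16 higher and 5 lower of 21 listed, and 2 rose, the collagen XVIII gene cle-1 (log2 fold change 0.89 ± 0.16, adjusted p = 0.0195) and ost-1, which encodes SPARC (log2 fold change 0.67 ± 0.15, adjusted p = 0.047). With the replicate block 9 of them rose.

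Of the 15 listed intestinal genes 6 rose and 1, ftn-1, fell in fasted worms. The microvillar actin act-5 had 8629.5, 9542, 9993 and 8176 normalized counts in fasted worms, against 4387, 4062, 4097 and 5296 in fed worms (log2 fold change 1.03 ± 0.12, adjusted p = 0.00258). The intestinal acid phosphatase pho-1 had 1455, 1158, 1043 and 1428 in fasted worms, against 529, 429, 527 and 642 in fed worms (log2 fold change 1.26 ± 0.16, adjusted p = 0.00446), and the intermediate filament ifc-2, part of the sheath under the brush border, had 1967, 1813, 1738 and 1808 in fasted worms, against 934, 991, 1026 and 1212 in fed worms (log2 fold change 0.82 ± 0.11, adjusted p = 0.00554). Every fasted library was above every fed library for these 3 genes, and all 3 calls were kept with any 1 library left out. Also higher were the filament ifb-2 (0.87), the sodium-proton exchanger nhx-2 (1.06) and the protease cpr-5 (1.13), as log2 fold changes. The ferritin ftn-1 fell, at 2.26, 2.18, 4.07 and 4.55 in fasted worms, against 28.9, 9.51, 25.9 and 12.7 in fed worms (log2 fold change -2.53 ± 0.51, adjusted p = 0.0319), and its call was lost with 1 library left out (highest adjusted p = 0.11). In all, 10 of the 15 were higher and 5 lower.

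Yolk transcripts were lower in fasted worms and are the most abundant transcripts among the listed genes. The vitellogenins are yolk lipoproteins that the adult hermaphrodite intestine secretes and oocytes take up, and all 4 listed genes of the 6 fell. The gene vit-3 (X, 3567397 to 3572549) had 51418, 51805, 45024 and 52843 normalized counts in fasted worms, against 145588, 130599, 137320.0 and 119525 in fed worms (log2 fold change -1.41 ± 0.10, adjusted p = 0.00022), which is 2.65-fold higher in fed worms. The gene vit-1 had 39846, 37849, 28516 and 49821 in fasted worms, against 84564, 104331, 97859 and 93605 in fed worms (log2 fold change -1.29 ± 0.16, adjusted p = 0.00354). The groups were far apart for both. The genes vit-4 and vit-5 had log2 fold changes of -0.80 ± 0.11 and -0.81 ± 0.12 (adjusted p = 0.00593 and 0.00835), and all 4 falls were kept with any 1 library left out, with the replicate block and under both scalings over the listed genes. Together the 4 genes had 16912, 15697, 15067 and 16809 CPM in fasted worms, against 31848, 34348, 35572 and 28277 CPM in fed worms. Their sequences are alike, so reads can be shared between them.

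**Figure D2:**
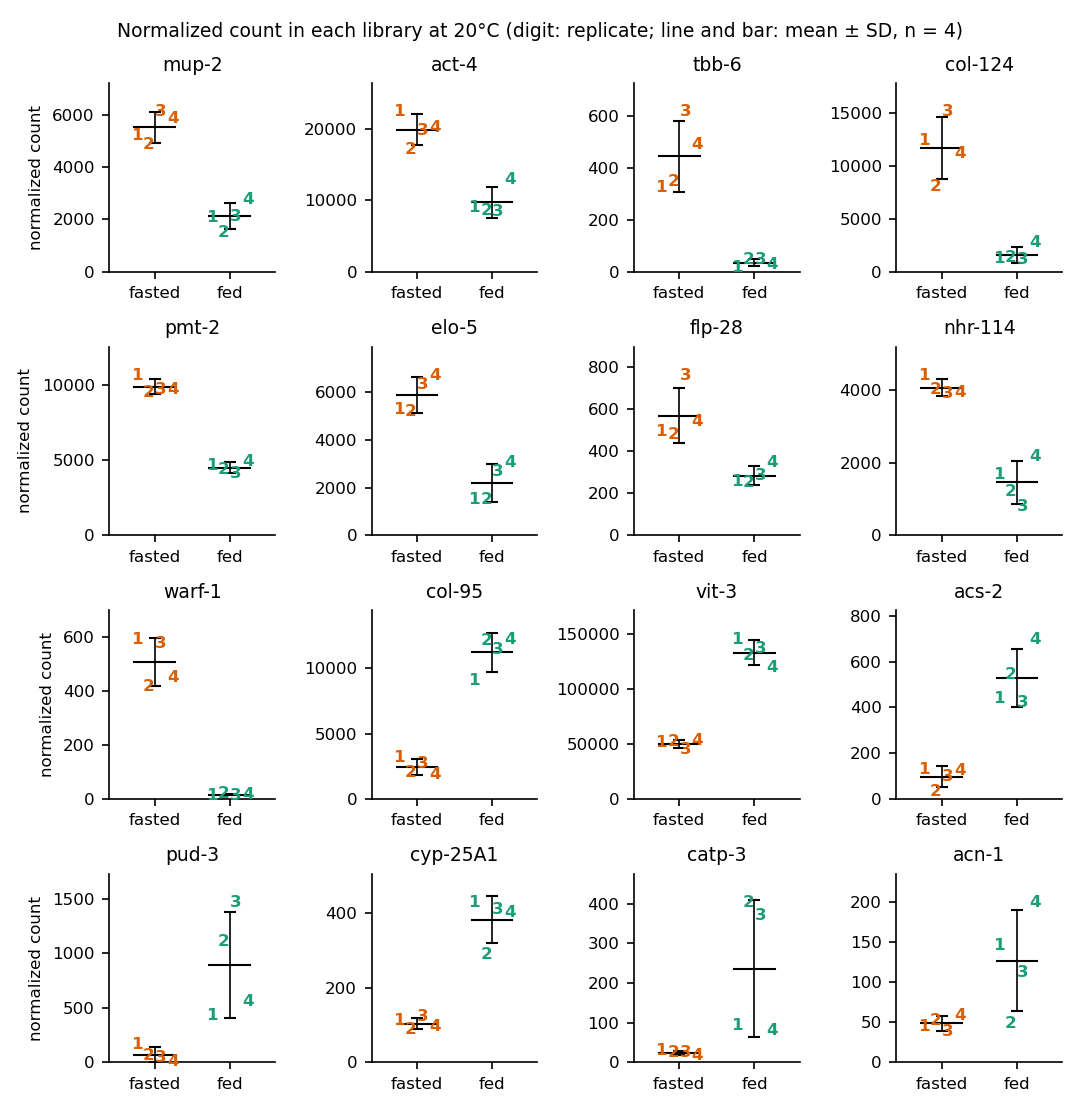
Normalized count of 16 genes in each library at 20°C, fasted left of fed, with the replicate number as the point and the mean ± SD of 4 libraries as line and bar, each axis from 0. The groups do not overlap for mup-2, act-4, tbb-6, col-124, pmt-2, elo-5, flp-28, nhr-114, warf-1, col-95, vit-3, acs-2, pud-3, cyp-25A1 and catp-3, while fed replicate 2 lies among the fasted libraries for acn-1.

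Oocyte, embryo and cell cycle transcripts were lower without passing the test. All 12 listed germline and oocyte genes of 53 matched were lower, with a median log2 fold change of -0.33. Among them were the eggshell proteoglycan cpg-2 (-0.32 ± 0.13), the egg activation pseudophosphatase egg-5 (-0.48 ± 0.15) and the P granule helicase glh-4 (-0.51 ± 0.19). In edgeR's test 0 of the 12 passed, against 12 lower by the unadjusted p under 0.05, and DESeq2 called 0 higher and 0 lower and limma 0 higher and 0 lower. Listing itself required an unadjusted p under 0.05 in the authors' test of the same contrast. Counts at that p, here and below, thus mostly restate the listing. Of all 2666 listed genes, 1526 were higher and 859 lower at that p in edgeR. With the replicate block egg-5 and glh-4 fell (adjusted p = 0.0484 and 0.0344). All 15 listed genes of DNA replication and cell division were lower, none passed in edgeR (14 at an unadjusted p under 0.05), and DESeq2 called 0 higher and 0 lower and limma 0 higher and 0 lower. The kinetochore gene hcp-1 had the smallest p, at 6439, 7019, 4963 and 6213 normalized counts in fasted worms, against 8958, 8419, 7775 and 7065 in fed worms (log2 fold change -0.39 ± 0.13, adjusted p = 0.15), and the groups did not overlap, as for 52.9% of all listed genes. The helicase subunit mcm-2 (-0.32 ± 0.13), the mitotic kinases cdk-1 (-0.30 ± 0.10) and plk-1 (-0.33 ± 0.14) had similar log2 fold changes. All 7 listed early embryo genes were lower too, with a median of -0.89 and none called (4 lower by the unadjusted p under 0.05, and DESeq2 called 0 higher and 0 lower and limma 0 higher and 0 lower). Of the sperm genes 5 are listed, 3 higher and 2 lower, and none passed in edgeR (3 higher and 2 lower by the unadjusted p under 0.05, and DESeq2 called 0 higher and 1 lower and limma 2 higher and 1 lower).

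Cuticle collagens were divided. The collagens of the cuticle are built by the hypodermis anew at each molt, and different members serve larval and adult cuticles. Of 51 listed genes of 179 matched, 31 were higher and 20 lower, 15 rose and 3 fell. The adult cuticle collagen col-19 averaged 9273 ± 1451 normalized counts in fasted worms and 2865 ± 798 in fed worms (SD, n = 4 each, log2 fold change 1.69 ± 0.20, adjusted p = 0.00275). The gene col-124 had 12422, 8006, 15116 and 11213 in fasted worms, against 1188, 1319, 1177 and 2729.5 in fed worms (log2 fold change 2.87 ± 0.30, adjusted p = 0.00178). The gene col-139 had 213, 225, 395 and 248 in fasted worms, against 16.9, 16.6, 17.9 and 34.2 in fed worms (log2 fold change 3.64 ± 0.32, adjusted p = 0.00056). Fed replicate 4 was the highest fed library for both, still far below every fasted library. The gene col-159 had 573, 475, 795 and 804 in fasted worms, against 82.6, 91.5, 88.6 and 127 in fed worms (log2 fold change 2.76 ± 0.23, adjusted p = 0.00048).

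The neighboring genes col-92, col-93 and col-94, which lie within about 6 kb on chromosome III, rose together, by 3.22 ± 0.39, 2.59 ± 0.45 and 3.201 ± 0.42 on the log2 scale (adjusted p = 0.00354, 0.019 and 0.00479). The call of col-93 was lost with 1 library left out (highest adjusted p = 0.0678). Against these, col-95 fell, at 3185, 2041, 2705 and 1844 in fasted worms and 9074, 12162, 11411 and 12238 in fed worms (log2 fold change -2.199 ± 0.18, adjusted p = 0.00048), and its call was kept in every such fit. The genes col-43 and col-158 also fell, with log2 fold changes of -1.88 ± 0.41 and -1.40 ± 0.32, and neither call was kept with every library left out in turn. Collagens of this family resemble each other, so reads can be assigned to a relative. The 15 rises were 18 with the replicate block, 14 and 12 under the TMM and DESeq2 scalings over the listed genes, and 10 to 19 with 1 library left out, and the 3 falls 3 with the replicate block, 3 and 7 under the TMM and DESeq2 scalings over the listed genes, and 1 to 5 with 1 library left out.

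Collagens of the cuticle's furrows and other molt-linked genes were lower on average, with fed libraries that disagreed. Of the collagens known for the annular furrows of the cuticle, 5 listed ones, chosen after their values were seen, had log2 fold changes of -1.30 ± 0.62 for dpy-2, -1.89 ± 0.76 for dpy-3, -1.203 ± 0.65 for dpy-7, -1.56 ± 0.61 for dpy-8 and -0.77 ± 0.34 for dpy-10, and none passed. All 6 listed cuticlins and zona pellucida proteins and 5 of 6 listed molting genes were lower, with medians of -0.98 and -1.31, and none passed in edgeR. By the unadjusted p under 0.05 there were 0 higher and 3 lower among the cuticlins, and 1 higher and 4 lower among the molting genes. For the cuticlins DESeq2 called 0 higher and 0 lower and limma 0 higher and 0 lower, and for the molting genes DESeq2 called 0 higher and 1 lower and limma 0 higher and 0 lower. The molting gene acn-1, which encodes a protein like angiotensin-converting enzyme, had 44.4, 52.2, 38.6 and 59.1 normalized counts in fasted worms, against 146, 48.7, 113 and 199 in fed worms (log2 fold change -1.38 ± 0.37, adjusted p = 0.0892), and fed replicate 2 lay inside the fasted range. Summed over the 6 molting genes the level was 16, 13.1, 11.5 and 15.2 CPM in fasted worms, against 36.3, 7.69, 21.8 and 47.4 CPM in fed worms. For the cuticlins it was 23.8, 22.6, 17.1 and 21.4 CPM in fasted worms, against 48.9, 17.8, 25.7 and 54.1 CPM in fed worms. In both lists fed replicates 1 and 4 were the highest of all libraries and fed replicate 2 was within or below the fasted range. The part of this spread in the collagen results was not tested.

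Of the enzymes that modify collagen, pdi-2, a protein disulfide isomerase and prolyl hydroxylase subunit, rose (log2 fold change 0.70 ± 0.11, adjusted p = 0.0127), as did the lysyl hydroxylase let-268 (log2 fold change 0.95 ± 0.19, adjusted p = 0.0318). Both calls were lost under the TMM and DESeq2 scalings over the listed genes and with 1 library left out (highest adjusted p = 0.0508 and 0.11). Astacin proteases, some of which act in molting, had 1 rise and 1 fall among 7 listed. The gene nas-3 had 171, 125, 154 and 345 normalized counts in fasted worms, against 22.9, 17.8, 41.8 and 54.7 in fed worms (log2 fold change 2.52 ± 0.42, adjusted p = 0.0146). The gene nas-20 had 42.9, 39.2, 45.7 and 158 in fasted worms, against 283, 252, 265 and 289 in fed worms (log2 fold change -1.92 ± 0.42, adjusted p = 0.0426). One fasted library, replicate 4, was well above the other fasted ones for nas-20, and both calls were lost with 1 library left out (highest adjusted p = 0.0552 and 0.13). None of the 13 listed antimicrobial peptides of the epidermis passed in edgeR, with 6 higher and 7 lower (5 higher and 6 lower by the unadjusted p under 0.05, and DESeq2 called 2 higher and 4 lower and limma 0 higher and 0 lower). With the replicate block 4 rose and 2 fell.

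**Figure D3:**
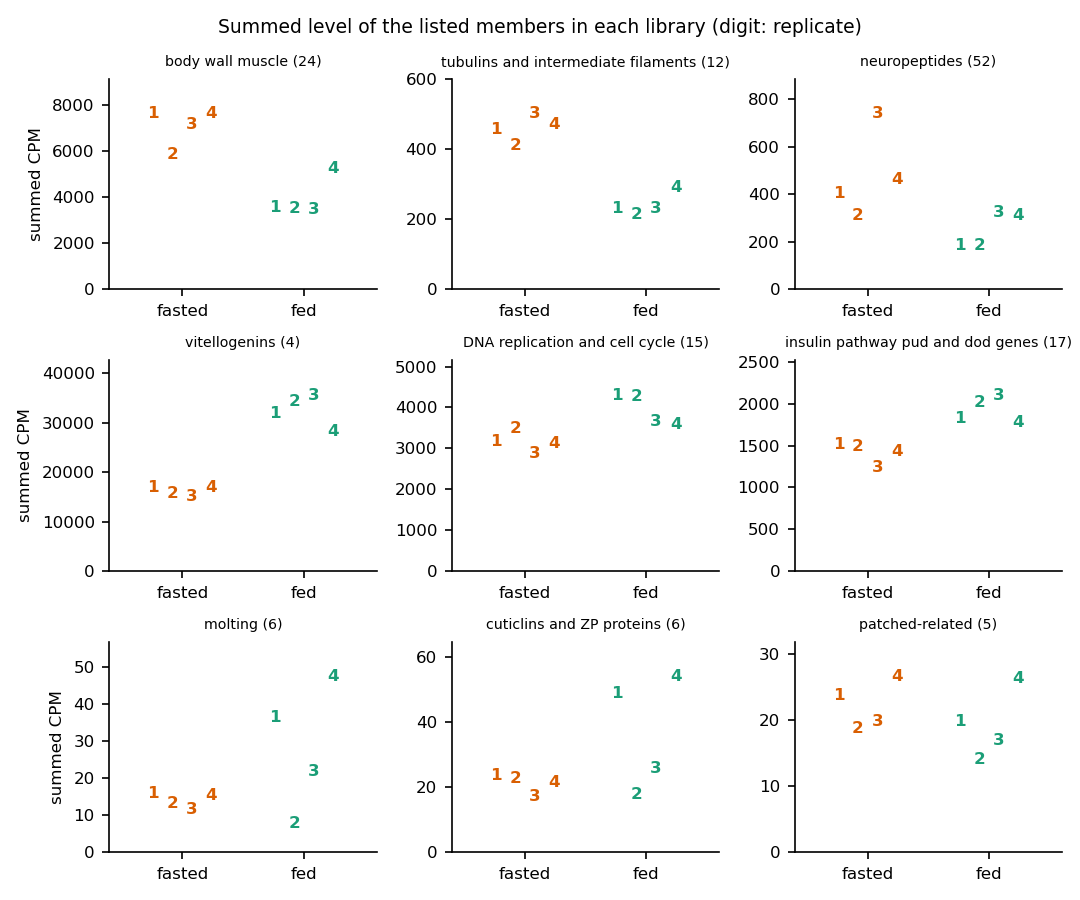
Summed CPM of the listed members of 9 gene lists in each library, fasted left of fed, with the replicate number as the point and each axis from 0. Muscle, filament, yolk, cell cycle and insulin-pathway lists have the groups apart, those of neuropeptides overlap, and for molting genes and cuticlins fed replicates 1 and 4 stand above all other libraries.

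Most listed genes for fatty acid synthesis rose. Desaturases put double bonds into fatty acids and elongases lengthen them, and 12 of 13 listed genes of 27 matched were higher, 9 rose and none fell (median log2 fold change 0.77). The branched-chain elongase elo-5 had 5256, 5207, 6332 and 6706 normalized counts in fasted worms, against 1508, 1497, 2672 and 3068 in fed worms (log2 fold change 1.43 ± 0.23, adjusted p = 0.0144). The palmitate elongase elo-2 had 4744, 5197, 4277 and 5349.5 in fasted worms, against 1580.1, 1637, 1916 and 3185 in fed worms (log2 fold change 1.23 ± 0.21, adjusted p = 0.016). The stearoyl-CoA desaturase fat-7 had 6018, 3706, 2171 and 2312 in fasted worms, against 1330.3, 921, 972 and 1261 in fed worms (log2 fold change 1.66 ± 0.30, adjusted p = 0.0215). No values overlapped between the groups for these 3 genes, and fasted replicate 1 had the highest level of fat-7. The desaturases fat-5 (1.47) and fat-6 (0.77), the elongases elo-6 (0.93) and elo-1 (0.46), the reductase let-767 (0.57) and nhr-80 (1.04), a nuclear receptor that controls stearoyl-CoA desaturase genes, rose as well, as log2 fold changes. The ω-3 desaturase fat-1 was the exception, at -0.44 ± 0.10 (adjusted p = 0.0569). The 9 rises became 9 with the replicate block, 5 and 4 under the TMM and DESeq2 scalings over the listed genes, and 1 to 7 with 1 library left out, and the call of elo-5 was the one kept in each of the last.

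Of the 10 listed methyl donor and phosphocholine genes 7 rose. This pathway makes S-adenosylmethionine and uses it to methylate phosphoethanolamine, the worm's route to phosphatidylcholine, and all 10 listed genes of 26 matched were higher (median log2 fold change 0.80). The phosphoethanolamine methyltransferase pmt-2 had 10623, 9493, 9709.9 and 9683 normalized counts in fasted worms, against 4603, 4336, 4109 and 4929 in fed worms (log2 fold change 1.14 ± 0.10, adjusted p = 0.00048). Its partner pmt-1 had 5035, 4749, 4506 and 5732 in fasted worms, against 1549, 1933, 2617 and 2168 in fed worms (log2 fold change 1.28 ± 0.16, adjusted p = 0.00354). The S-adenosylmethionine synthetase sams-1 had 8448, 8673, 5874 and 10443 in fasted worms, against 3439.8, 3057, 2819 and 4822 in fed worms (log2 fold change 1.24 ± 0.20, adjusted p = 0.0144). Each fasted library was above each fed library, and pmt-2 had the tightest values of the 3. The choline kinase ckb-2 (1.38), the CTP-dependent enzyme pcyt-1 (0.70), the phosphotransferase cept-1 (0.89) and the S-adenosylhomocysteinase ahcy-1 (0.53) rose too. The calls of pmt-1 and pmt-2 were kept with any 1 library left out, and the 7 rises numbered 7 with the replicate block, 4 and 3 under the TMM and DESeq2 scalings over the listed genes, and 2 to 7 with 1 library left out.

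Fatty acid breakdown had no common direction. Of 22 listed genes 12 were higher and 10 lower, 4 rose and 1 fell, and the median log2 fold change of 0.36 turned to -0.03 with DESeq2 size factors from the listed genes. The acyl-CoA synthetase acs-2, a gene known to be induced on food withdrawal in C. elegans, fell, with 130.1, 31.6, 97.6 and 126 normalized counts in fasted worms, against 439.8, 545, 423 and 699 in fed worms (log2 fold change -2.44 ± 0.37, adjusted p = 0.00999). The enoyl-CoA hydratase ech-7 rose, with 2983, 3234, 3818 and 2460.1 in fasted worms, against 1029.8, 814, 640.4 and 1329 in fed worms (log2 fold change 1.71 ± 0.22, adjusted p = 0.00446). Both were apart in every library, and both calls were kept with any 1 library left out. For acs-2 the study reported the opposite direction with a GFP reporter driven by its promoter. Those worms were fasted for 24 h and then fed for 24 h. A reporter signal is not an mRNA level, and the cause of the difference was not tested. Another acyl-CoA synthetase, acs-1, had 4856, 4834, 3293 and 5004 in fasted worms, against 2324, 2328, 2226 and 3149.6 in fed worms (log2 fold change 0.84 ± 0.16, adjusted p = 0.0254), and the acyl-CoA dehydrogenase acdh-1 rose by 0.54 ± 0.11 on the log2 scale (adjusted p = 0.0361). The glyoxylate cycle enzyme icl-1, which lets worms make sugar from fat, fell, at 1695, 878, 957 and 1536 in fasted worms, against 2578, 3173, 3829 and 3393 in fed worms (log2 fold change -1.35 ± 0.22, adjusted p = 0.014).

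Lipid carriers changed in both directions. The fatty acid binding protein lbp-6 had 4619, 3689.5, 5408 and 5843 normalized counts in fasted worms, against 2188, 1832, 2480.0 and 2454 in fed worms (log2 fold change 1.13 ± 0.16, adjusted p = 0.00613). The related lbp-8, a lysosomal lipid chaperone, had 2.26, 2.18, 8.13 and 8.19 in fasted worms, against 30.8, 26.1, 85.7 and 58.6 in fed worms (log2 fold change -3.27 ± 0.56, adjusted p = 0.016). These 2 genes of 1 family thus moved in opposite directions without overlap, although lbp-8 lost its call with 1 library left out (highest adjusted p = 0.0575). The acyltransferases acl-1 and acl-7 rose (0.60 ± 0.11 and 0.72 ± 0.15), as did the peroxisomal transporters pmp-5 (log2 fold change 1.15 ± 0.15, adjusted p = 0.00465) and pmp-1 (log2 fold change 1.07 ± 0.21, adjusted p = 0.0298). The P-glycoprotein pgp-1 fell, with 147, 76.2, 103.7 and 187 in fasted worms, against 283, 633, 489 and 609 in fed worms (log2 fold change -1.96 ± 0.32, adjusted p = 0.0144).

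Amino acid breakdown genes leaned higher, with 13 of 14 listed genes higher and 5 called. Of the 5, 3 act in tyrosine breakdown, namely tatn-1 (log2 fold change 0.92 ± 0.19, adjusted p = 0.0361), hpd-1 (log2 fold change 0.72 ± 0.12, adjusted p = 0.0148) and fah-1 (log2 fold change 0.50 ± 0.11, adjusted p = 0.045). The gene hpd-1 had 3213, 3349, 3114 and 3774 normalized counts in fasted worms, against 1853, 1977, 1859.5 and 2461 in fed worms, with no overlap. The dioxygenase haao-1, which leads from tryptophan to NAD, had 183, 146, 212 and 281 in fasted worms, against 80.6, 55.8, 105 and 88.9 in fed worms (log2 fold change 1.31 ± 0.26, adjusted p = 0.0277). The mitochondrial sirtuin sir-2.3, an NAD-dependent enzyme, had 91.7, 77.3, 87.4 and 75.5 in fasted worms, against 40.8, 35.6, 17.9 and 24.4 in fed worms (log2 fold change 1.48 ± 0.28, adjusted p = 0.0246), and its neighbor sir-2.2 had a log2 fold change of 0.52 ± 0.20 that did not pass (adjusted p = 0.21). All 7 listed genes of the sirtuin and NAD list were higher. None of these calls was kept in all of the fits with 1 library left out. The 5 rises became 7 with the replicate block, 1 and 1 under the TMM and DESeq2 scalings over the listed genes, and 0 to 7 with 1 library left out.

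Energy and protein synthesis genes were mostly outside the table. Of 60 matched respiratory chain genes 8 are listed, 7 of them higher, and ucr-2.2 of complex III rose (log2 fold change 0.62 ± 0.12, adjusted p = 0.0302). In the citric acid cycle aco-1 rose (log2 fold change 0.71 ± 0.13, adjusted p = 0.0195), and among trehalose and glycogen genes aagr-4 did (log2 fold change 1.08 ± 0.23, adjusted p = 0.0426). The calls of ucr-2.2, aco-1 and aagr-4 were each lost with 1 library left out. They were also lost under the TMM and DESeq2 scalings over the listed genes. Of the cytoplasmic ribosomal protein genes rpl-11.2 rose, with 9192, 11132, 15920.2 and 9016 normalized counts in fasted worms, against 5394, 4076, 4131 and 5915 in fed worms (log2 fold change 1.21 ± 0.20, adjusted p = 0.0144). The ribosomal protein gene rpl-23A.1 also rose (log2 fold change 1.11 ± 0.18, adjusted p = 0.0124), while rpl-10a (0.42 ± 0.17), rps-27A (0.41 ± 0.16) and rpl-18A (0.37 ± 0.16) are listed and did not pass. The ribosomal list missed these 4 symbols, and they were named after their values were seen. Among translation factors the eIF5A gene iff-2 rose (log2 fold change 0.81 ± 0.11, adjusted p = 0.00465). The mitochondrial ribosomal protein mrps-14 (0.33 ± 0.13, adjusted p = 0.26) was the 1 listed gene of 67 matched and did not pass. Its sign turned to -0.08 with DESeq2 size factors from the listed genes. Of 2 listed tRNA synthetases of 34 matched, rars-2 (-0.24 ± 0.10, adjusted p = 0.29) had the smaller p and did not pass.

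Chaperones of the endoplasmic reticulum (ER) rose modestly, with 9 of 10 listed genes higher and 6 called. The BiP homolog hsp-3, the main ER HSP70, had 17671, 16626, 16872 and 18839.8 normalized counts in fasted worms, against 9799, 10901, 11444 and 12326 in fed worms (log2 fold change 0.65 ± 0.10, adjusted p = 0.0104). The disulfide isomerase pdi-6 had 6728, 6312, 8149.6 and 7272 in fasted worms, against 3889, 4211, 4848 and 4657 in fed worms (log2 fold change 0.69 ± 0.11, adjusted p = 0.0144). Both were apart between the groups with little spread within them. Calreticulin crt-1 (0.51), the translocon subunit trap-2 (0.77) and the unfolded protein response factor xbp-1 (0.41) rose too, although xbp-1 did not pass with the replicate block (adjusted p = 0.0566), and calnexin cnx-1 was at -0.19 ± 0.09 without passing. The 6 rises became 6 with the replicate block, 0 and 0 under the TMM and DESeq2 scalings over the listed genes, and 2 to 5 with 1 library left out.

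In a list of insulin pathway genes that holds pud and dod genes, 13 of 17 listed genes were lower in fasted worms, 8 fell and none rose. The pud and dod genes are named for their response to reduced insulin signaling through the receptor DAF-2 and the factor DAF-16. The log2 fold changes of dod-17 (0.69 ± 0.26) and dod-23 (-0.71 ± 0.21) did not pass, nor did that of pudl-1 (1.61 ± 0.51), and these 3 were named after their values were seen. Of the 8 that fell 5, pud-1.1, pud-2.1, pud-2.2, pud-3 and pud-4, lie between 2323014 and 2330930 on chromosome V and fell together. The gene pud-3 had 165, 59.9, 43.7 and 10.004 normalized counts in fasted worms, against 431, 1112, 1465 and 555 in fed worms (log2 fold change -3.65 ± 0.68, adjusted p = 0.0224). The gene pud-4 had 36.1, 17.4, 16.3 and 1.82 in fasted worms, against 134, 234, 356 and 84 in fed worms (log2 fold change -3.46 ± 0.64, adjusted p = 0.0223). The gene pud-2.1 had 8.27, 6.53, 6.1 and 5.46 in fasted worms, against 63.7, 71.3, 151 and 61.5 in fed worms (log2 fold change -3.69 ± 0.39, adjusted p = 0.00178). No fasted library reached the lowest fed library in these genes, and fed replicate 3 was the highest of all each time. The genes pud-2.2 (-3.84) and pud-1.1 (-3.50) had similar log2 fold changes, and as near-copies pud-1.1, pud-2.1 and pud-2.2 may share reads with relatives. Also down were dod-3, at a mean of 3.62 ± 3.73 in fasted worms and 73.7 ± 43.3 in fed worms, and the metallothionein mtl-1, at 1.44 ± 1.55 in fasted worms and 31.5 ± 34.9 in fed worms (SD, n = 4 each). The 8 falls became 9 with the replicate block, 10 and 11 under the TMM and DESeq2 scalings over the listed genes, and 5 to 8 with 1 library left out, and pud-1.1, pud-2.1, pud-2.2 and icl-1 were kept each time.

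**Figure D4:**
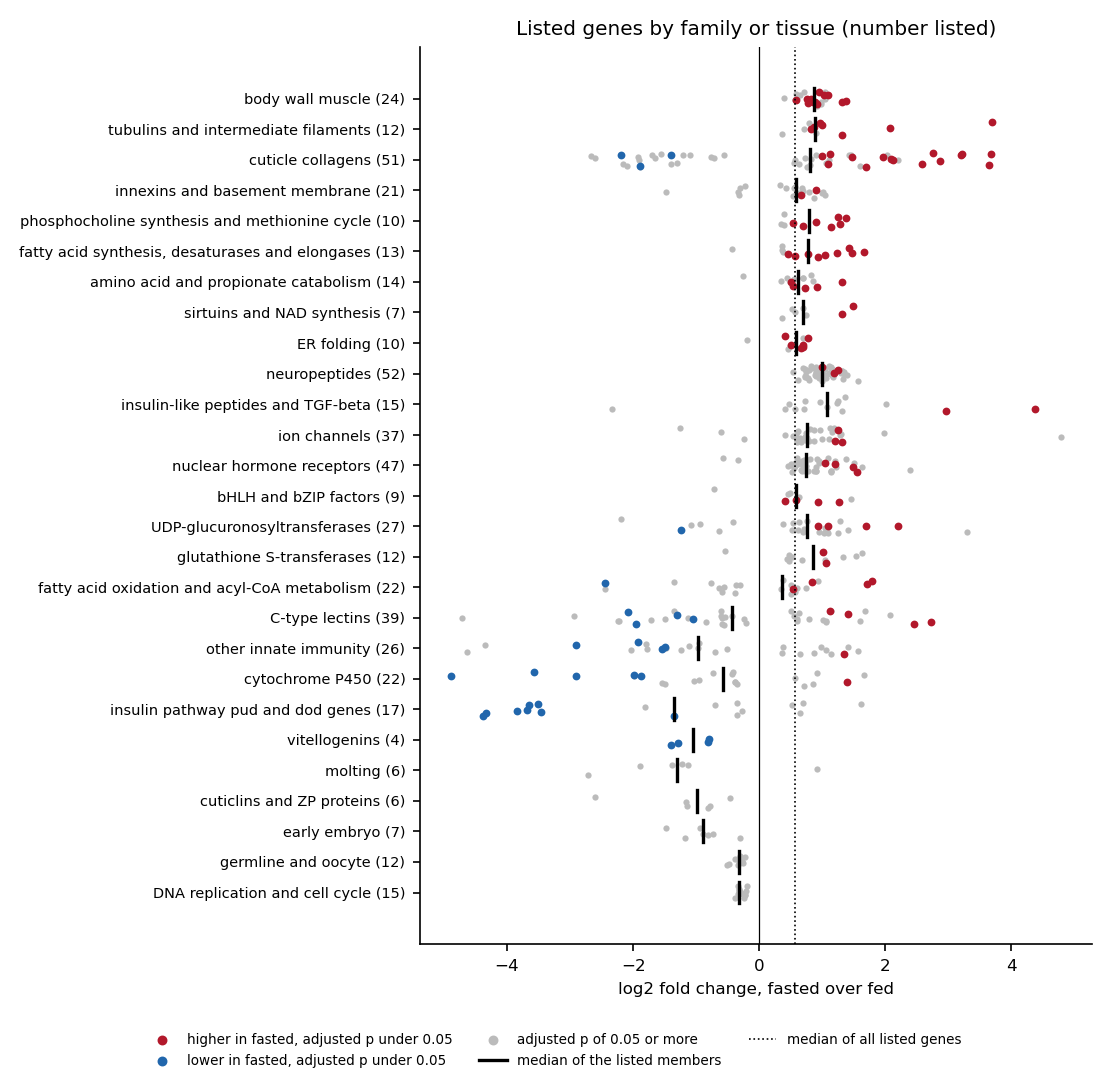
Log2 fold change of every listed member of 27 gene lists, with genes that rose in red, genes that fell in blue and the rest in gray, the median of each list as a bar and that of all listed genes (0.57) as a dotted line. Muscle, filament, phosphocholine and neuropeptide lists lie wholly to the right of 0 and yolk, embryo, germline and cell cycle lists wholly to the left, while collagens and lectins spread to both sides.

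Detoxification families differed from each other. Cytochrome P450 enzymes oxidize lipids and foreign compounds, and 16 of 22 listed genes were lower, 5 fell and 1, cyp-33C8, rose (1.38 ± 0.29). The gene cyp-25A1 had 111, 87.1, 121.97 and 95.5 normalized counts in fasted worms, against 428, 289, 410.3 and 402 in fed worms (log2 fold change -1.88 ± 0.19, adjusted p = 0.00157). The gene cyp-34A2 had 7.52, 4.35, 3.05 and 2.73 in fasted worms, against 62.7, 48.7, 85.7 and 22.5 in fed worms (log2 fold change -3.57 ± 0.50, adjusted p = 0.00623). The groups did not overlap, and both calls were kept with any 1 library left out, unlike those of cyp-29A4 and cyp-13A5 (highest adjusted p = 0.0781 and 0.14). UDP-glucuronosyltransferases, which attach sugars to such compounds, had 21 higher and 6 lower of 27 listed, 4 rises and 1 fall. The gene ugt-50 had 695, 428, 589.5 and 553 in fasted worms, against 293, 233, 249.99 and 287 in fed worms (log2 fold change 1.09 ± 0.17, adjusted p = 0.0128), and ugt-53 had 84.2, 87.1, 124.003 and 87.3 in fasted worms, against 216, 249.5, 245 and 191 in fed worms (log2 fold change -1.24 ± 0.19, adjusted p = 0.0113). Glutathione S-transferases had 11 of 12 listed genes higher, and gst-39 (log2 fold change 1.07 ± 0.22, adjusted p = 0.037) and gst-26 (log2 fold change 1.018 ± 0.22, adjusted p = 0.0426) rose, with both calls lost in some of the fits with 1 library left out. In the redox list the methionine sulfoxide reductase msra-1 rose, at 7317, 4825, 9638 and 7753 in fasted worms, against 2209, 1597, 1827 and 2746 in fed worms (log2 fold change 1.82 ± 0.22, adjusted p = 0.00354).

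Immune effector families had more listed members lower than higher. C-type lectins, secreted sugar-binding proteins, had 17 higher and 22 lower of 39 listed, with 4 rises and 4 falls. The gene clec-210 had 15.8, 20.7, 14.2 and 20.01 normalized counts in fasted worms, against 71.6, 64.2, 83.7 and 79.1 in fed worms (log2 fold change -2.07 ± 0.25, adjusted p = 0.0031). The gene clec-190 had 118, 79.5, 124.003 and 171 in fasted worms, against 369, 524, 338 and 688 in fed worms (log2 fold change -1.96 ± 0.29, adjusted p = 0.00835). Both fell without overlap and were kept with any 1 library left out, as was clec-222 (-1.31 ± 0.19), whereas the fall of clec-218 (-1.06 ± 0.20) and the rises of clec-246 (2.72 ± 0.53), clec-70 (2.45 ± 0.41), clec-170 (1.40 ± 0.32) and clec-10 (1.12 ± 0.22) were not. Of 12 listed lysozyme and saposin-like genes 8 were lower. Among the lysozymes lys-1 (-0.80 ± 0.22), lys-2 (-1.67 ± 0.39), lys-7 (-1.81 ± 0.51) and lys-8 (-0.84 ± 0.23) did not pass, although each did with the replicate block (adjusted p = 0.0157, 0.0181, 0.00597 and 0.0181), and spp-25 rose (log2 fold change 1.39 ± 0.24, adjusted p = 0.0186). Among other immune genes the thaumatin-like thn-1 and thn-2 fell (log2 fold change -2.91 ± 0.43, adjusted p = 0.00939 and log2 fold change -1.50 ± 0.26, adjusted p = 0.0169), as did the infection response genes irg-4 (-1.92) and irg-5 (-1.54), and dct-18 rose (log2 fold change 1.34 ± 0.17, adjusted p = 0.00446).

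Of the hydrolases of lysosome and gut lumen, the carboxypeptidase-like cathepsin cpz-1 fell, with 6905, 6931, 8772 and 6953 normalized counts in fasted worms, against 13439.8, 11902, 11611 and 12665 in fed worms (log2 fold change -0.75 ± 0.11, adjusted p = 0.00835). The acid phosphatase pho-11 fell further, with 348, 505, 511 and 511 in fasted worms, against 1222, 1255, 2294 and 1308 in fed worms (log2 fold change -1.70 ± 0.23, adjusted p = 0.00496), while its relatives pho-1 and pho-13 rose (1.26 ± 0.16 and 1.13 ± 0.21). The neprilysin-like peptidase nep-14 rose, with 59.4, 71.8, 64 and 66.4 in fasted worms, against 7.96, 20.2, 3.98 and 8.79 in fed worms (log2 fold change 2.69 ± 0.40, adjusted p = 0.00944). The groups were apart for all of these, and the calls of cpz-1, pho-11 and nep-14 were kept with any 1 library left out. Adaptors for protein degradation of the F-box, MATH and BTB families, 70 listed of 606 matched, had 34 higher and 36 lower, and 5 rose, among them math-22 at 177, 171, 178 and 178 in fasted worms, against 87.6, 101, 113 and 91.8 in fed worms (log2 fold change 0.84 ± 0.16, adjusted p = 0.0256).

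Neuropeptide genes listed here shared a direction. All 52 were higher in fasted worms and their median log2 fold change was 0.996. Only 3 passed, 5.8% of them, against 10.8% of all listed genes that rose. With the replicate block 27 did, against 553 rises among all 2666 listed genes. The FMRFamide-like peptide gene flp-28 had 494, 479, 760.3 and 542 normalized counts in fasted worms, against 254, 251, 282 and 348 in fed worms (log2 fold change 1.003 ± 0.19, adjusted p = 0.0242). The related flp-3 had 230.1, 121, 296 and 183 in fasted worms, against 63.7, 85.6, 113 and 86 in fed worms (log2 fold change 1.25 ± 0.28, adjusted p = 0.0488), and nlp-20 had 404, 381, 779 and 468 in fasted worms, against 192, 173, 291 and 233 in fed worms (log2 fold change 1.19 ± 0.26, adjusted p = 0.0426). Every fasted library was above every fed library in these 3, fasted replicate 3 was the highest throughout, and the calls were lost with 1 library left out (highest adjusted p = 0.0844, 0.14 and 0.13). Among those called with the block were flp-1 (1.24 ± 0.42, adjusted p = 0.0384) and pdf-1, a peptide of locomotor state (0.77 ± 0.33, adjusted p = 0.0474). Summed over the 52 genes the level was 405, 309.7, 740.3 and 463 CPM in fasted worms, against 186, 187, 323 and 311 CPM in fed worms, where fed replicates 3 and 4 reached the lowest fasted library. The peptide processing genes egl-3 (0.61 ± 0.18), egl-21 (0.62 ± 0.20) and sbt-1 (0.92 ± 0.30) were also higher without passing, and sbt-1 passed with the block (adjusted p = 0.0268).

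Of the listed ion channel genes 34 were higher and 3 lower, and 3 of the 37 rose, against 10.8% of all listed genes. The potassium channels twk-26 (log2 fold change 1.31 ± 0.23, adjusted p = 0.019) and kvs-5 (log2 fold change 1.25 ± 0.23, adjusted p = 0.022) and the bestrophin best-7 (log2 fold change 1.205 ± 0.24, adjusted p = 0.0298) were the rises, and 9 channel genes rose under the replicate block. With 1 library left out 0 to 7 channel genes rose, and none was called each time. The gene twk-26 had 154, 106, 115 and 119.1 normalized counts in fasted worms, against 41.8, 39.2, 62.7 and 55.7 in fed worms, without overlap. Insulin-like and TGF-β peptide genes had 14 of 15 listed genes higher. The insulin-like ins-33 rose, with 19.5, 10.9, 45.7 and 30.9 in fasted worms, against 0.995, 1.19, 4.98 and 5.86 in fed worms (log2 fold change 2.96 ± 0.62, adjusted p = 0.0366), and ins-32 had 13.5, 5.44, 8.13 and 3.64 in fasted worms, against 0, 1.19, 0 and 0 in fed worms (adjusted p = 0.0366), too few reads for a fold. The calls of ins-33 and ins-32 were lost with 1 library left out. The neuroendocrine ligands daf-7 (0.97 ± 0.28) and daf-28 (1.31 ± 0.40) did not pass. In contrast the octopamine-synthesis gene tbh-1 fell, with 3884, 3623, 3251 and 4136 in fasted worms, against 4482, 5707, 5937 and 7181 in fed worms (log2 fold change -0.65 ± 0.14, adjusted p = 0.0456), and lost its call with 1 library left out (highest adjusted p = 0.12). Of the 8 listed genes of the neuron list 6 were higher and 2, tbh-1 and tdc-1, were lower, with tbh-1 the 1 called. The summed level of the 8 genes was 650.1, 629.9, 663 and 640.0 CPM in fasted worms, against 697, 762, 738 and 816 CPM in fed worms, lower in every fasted library. Most of it came from tbh-1 and tdc-1, so the sum is not a level of neurons as a whole.

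Transcription regulators called in the receptor, leucine zipper and GATA lists were all higher. Of 8 listed homeobox and T-box genes 3 were higher and 5 lower, and none passed. Nuclear hormone receptors, a family much expanded in worms, had 45 higher and 2 lower of 47 listed, a median log2 fold change of 0.74 and 4 rises. These were 8.5% of the listed receptors, against 10.8% of all listed genes that rose. The gene nhr-114, which controls methionine cycle genes in worms, had 4402, 4012, 3908 and 3933 normalized counts in fasted worms, against 1678, 1198, 781 and 2169 in fed worms (log2 fold change 1.48 ± 0.25, adjusted p = 0.0169). The gene nhr-115 had 96.2, 77.3, 113 and 95.5 in fasted worms, against 29.9, 27.3, 25.9 and 46.9 in fed worms (log2 fold change 1.55 ± 0.26, adjusted p = 0.0148). No overlap occurred, fed replicate 4 was the highest fed library for both, and none of the 4 calls was kept with every library left out in turn (0 to 5 rises). Of the leucine zipper factors atf-4, a factor of amino acid and translation stress, had 1414, 1183, 1446 and 1502 in fasted worms, against 632, 694, 793 and 781 in fed worms (log2 fold change 0.94 ± 0.13, adjusted p = 0.00496) and was kept, while zip-5 (log2 fold change 1.26 ± 0.21, adjusted p = 0.0146) and zip-3 (log2 fold change 0.59 ± 0.13, adjusted p = 0.0408) were not. The hypodermal GATA factor elt-3 had 305, 235, 254 and 345 in fasted worms, against 124.4, 115, 118 and 199 in fed worms (log2 fold change 1.03 ± 0.22, adjusted p = 0.0426). Its call was lost with 1 library left out and under the TMM and DESeq2 scalings over the listed genes.

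Nutrient transporters were listed often and called rarely. Of 43 listed genes of 158 matched, 31 were higher and 12 lower, 2 rose and 2 fell. The sugar transporter swt-3 (log2 fold change 1.06 ± 0.23, adjusted p = 0.0417) and the exchanger nhx-2 (log2 fold change 1.06 ± 0.22, adjusted p = 0.0359) rose, and slc-9B.1 (log2 fold change -1.72 ± 0.34, adjusted p = 0.0297) and swt-6 (log2 fold change -1.86 ± 0.42, adjusted p = 0.0491) fell, and each lost its call with 1 library left out. Chemoreceptor genes, the largest family searched at 1707 matched, had 28 listed, 17 higher and 11 lower, of which sri-40 (log2 fold change 0.88 ± 0.16, adjusted p = 0.0217) and srd-64 (log2 fold change 1.64 ± 0.36, adjusted p = 0.0456) rose and srlf-7 fell (log2 fold change -1.099 ± 0.25, adjusted p = 0.0472). The gene sri-40 had 1256, 1459, 1381 and 1031 normalized counts in fasted worms, against 685, 808, 529 and 757 in fed worms, without overlap.

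Gene length and chromosome were not used to pick the genes, and direction differed along both. Split into 10 length groups of 266 or 267 listed genes, 72.3% of the shortest group (up to 531 bases) and 74.9% of the next were higher in fasted worms. The share was 46.99% and 47.9% in the longest 2 groups, which start at 2018 bases. Called genes showed less of this, with a median length of 1272.5 bases among those that rose, 1192.5 among those that fell and 1279.5 among all listed genes. By chromosome, 75.1% of the 503 listed genes on X and 66.7% of the 654 on V were higher, against 55.3% to 57.6% on the other 4 autosomes. Falls were most frequent among listed genes of chromosome V, at 5.35%, and IV, at 4.20%. Genes are not independent replicates, so these shares carry no test, and the part of transcript length or RNA quality in them was not tested.

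**Figure D5:**
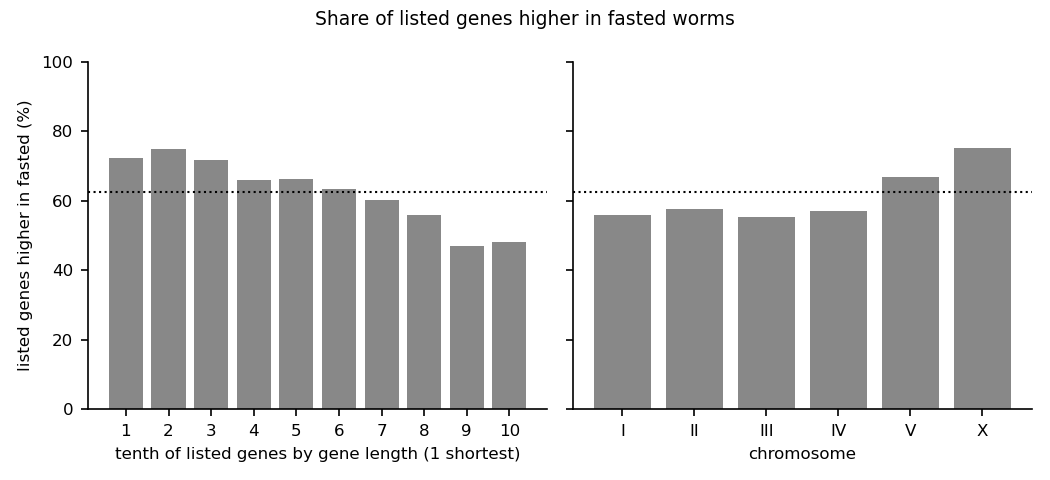
Percent of listed genes with a higher level in fasted worms, by 10 groups of gene length from the shortest (1) to the longest (10) and by chromosome, with the 62.5% of all listed genes as a dotted line. The share drops from over 70% in the 3 shortest groups to under 50% in the 2 longest, and chromosome X stands highest at 75.1%.

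After heat shock most of these effects kept their direction where a value exists. Of the 368 genes called at 20°C, 56 are also listed for heat-shocked worms, and 53 of these had the same direction there. The share was similar over all genes listed in both, called or not, at 380 of 410. The other called genes have no value after heat shock. Each table lists genes by its own selection and has its own scaling, so the genes are those that passed in both. The fasting effect was tested for a difference between temperatures over the 410 genes listed in both, and the edgeR interaction gave an adjusted p under 0.05 for 14 of them, of which 4 were called at 20°C. These p-values were adjusted over the 410 genes alone, which both contrasts had selected, so they are given as a description. Adjusted over 14982 genes, the edgeR interaction called 0, with 33 at an unadjusted p under 0.05 and a smallest adjusted p of 0.44. For tbb-6 the log2 fold change was 3.69 at 20°C and 0.80 after heat shock (adjusted p = 0.0121 for the difference, over the 410 genes), and for nas-3 it was 2.52 and -2.08 (adjusted p = 0.0239). The noncoding RNA tts-1 (-1.98 and 0.52, adjusted p = 0.0199) and spin-1, a lysosomal transporter (1.27 and -0.77, adjusted p = 0.0239), were the other 2, named after their values were seen. For the neuropeptides flp-28 and flp-3 the log2 fold changes after heat shock were 0.63 and 0.88.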

How the data were processed

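Whole-worm RNA was poly(A)-selected and sequenced as paired reads by the authors, who aligned it to WBcel235 with HISAT2 2.0.5 and counted reads per gene with featureCounts 1.5.0-p3. Whether counting used strand is not stated, so a gene and an overlapping antisense neighbor cannot be told apart. Deposited raw counts were used for tests. The deposited normalized count (signal) is the count divided by the authors' DESeq2 size factor (0.842 to 1.33), and the deposited FPKM values are scaled to gene length and library reads. The authors' p-values were used only to learn that listing requires an unadjusted p under 0.05 and that 14982 genes were adjusted over, and their fold changes were not used.

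Library reads were recovered from counts and FPKM. The counts were tested with edgeR 4.0.16 (R 4.3.3) by the quasi-likelihood method, with those reads and size factors as offsets, and adjusted over 14982 genes, unlisted ones having a p of 1. The other settings tried were limma 3.58.1 (FPKM with a pseudocount of 1 or 0.1, log2), DESeq2 1.42.0, other scalings, a mean of at least 10 counts, a replicate block, adjustment over the listed genes and leaving out each library. Scripts were tested on simulated data. Deviations of same-numbered fasted and fed libraries correlated at 0.18, 0.14, 0.36 and 0.12 over 2459 genes, so the numbers were taken to pair the libraries, although fasted replicate 2 and fed replicate 1 correlated at 0.31. This comes from the data, since no label states it.

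Names came from RefSeq for 2638 genes and 28 kept identifiers. The 70 gene lists and the rules were chosen with earlier results of these data known, and some misassigned members (serpins and others) were removed from 3 lists after the data were seen. Named genes are the 12 largest rises and 8 largest falls with groups apart and a mean of at least 50 normalized counts, plus up to 3 called members per list, or the 1 with the smallest p. Others named were chosen after their values were seen. Planned motif counts in promoters were not run, as no sequence was used here.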

Additional observations from a re-analysis of the deposited data

Results flagged for a closer look

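Among 284 groups of 4 libraries, those of the 142 named genes, 22 had 1 library far from the other 3 by Dixon's test at the 95% level, and chance alone flags about 1 in 20 groups. Fed replicate 4 was the highest fed library for col-139 (34.2 normalized counts, against 16.6 to 17.9 in the other 3), col-124 (2730, against 1177 to 1319), tba-4 (1328, against 802 to 841), act-4 (12898, against 8379 to 8964), acs-1 (3150, against 2226 to 2328) and elt-3 (199, against 115 to 124.4). It was the lowest for rars-2 (1440, against 1588 to 1612) and for math-38 (0, against 1.99 to 2.38). Fed replicate 3 was the highest for pud-2.1 (151, against 61.5 to 71.3), pho-11 (2294, against 1222 to 1308) and ssp-37 (77.7, against 44.9 to 49.9), and fed replicate 2 was the highest for ins-32 (1.19, against 0).

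Of the fasted libraries, replicate 1 was the highest for Y41C4A.11 (2749, against 1881 to 1994) and ssp-37 (33.1, against 13.6 to 16.3) and the lowest for pho-11 (348, against 505 to 511). Replicate 3 was the highest for cpz-1 (8772, against 6905 to 6953), ugt-53 (124.003, against 84.2 to 87.3), thn-2 (186, against 121.9 to 133) and phat-6 (368, against 80.5 to 121.9) and the lowest for acs-1 (3293, against 4834 to 5004). Replicate 2 was the lowest for math-22 (171, against 177 to 178), and replicate 4 was the highest for nas-20 (158, against 39.2 to 45.7).

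Of the 22 named genes listed at both temperatures, 2 had an adjusted p under 0.05 for the difference in fasting effect. That of tbb-6 was 2.89 higher on the log2 scale at 20°C than after heat shock, and that of nas-3 was 4.61 higher (edgeR interaction, adjusted p = 0.0121 and 0.0239 over 410 genes that both contrasts had selected). Adjusted over 14982 genes, neither passed.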

How the results depend on the processing

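Against 288 rises and 80 falls, the counts were 659 and 215 with DESeq2, 161 and 168 with TMM over the listed genes, 143 and 603 with DESeq2 size factors over the listed genes, 1428 and 751 when adjusted over the listed genes alone, and 73 to 371 and 34 to 100 with 1 library left out. With the replicate block there were 553 rises and 133 falls. The edgeR interaction between temperatures called 14 genes, 13 with the block, and 0 when adjusted over 14982 genes, an alternative chosen after seeing the data (33 at an unadjusted p under 0.05). Limma, library reads alone and the low-count filter gave 272 to 305 rises and 75 to 86 falls. Scalings over the listed genes center on genes chosen for changing. By construction, adjustment over fewer genes gives more calls, and a fit with 7 libraries has fewer samples, although leaving out fed replicate 4 gave more calls; the cause of the other moves was not tested.

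Of the 142 named genes 120 were called. Calls lost numbered 58, 24, 39 and 52 without fasted replicates 1 to 4 in order, 55, 49, 46 and 10 without fed replicates 1 to 4 in order, 25 with TMM and 33 with DESeq2 size factors over the listed genes, and 52 calls were kept in all 8 fits with 1 library left out. The block lost no call among these genes and gained 7 (lec-10, ssp-37, nlp-28, grd-14, sid-2, pqn-37 and egg-5), with no other call among them changed, and over all genes it lost 12 calls, 10 rises and 2 falls, that of xbp-1 among them. Direction reversed once, for mrps-14 (-0.079 with DESeq2 size factors over the listed genes). Genes of a few reads per library, such as ins-32, ftn-1 and math-38, are limited by depth.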

Other observations

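Of the 368 called genes, 191 are in none of the 70 lists, and those named here were chosen after their values were seen. The serine palmitoyltransferase sptl-2, which starts sphingolipid synthesis, averaged 807 ± 137 normalized counts in fasted worms and 234 ± 68.9 in fed worms (SD, n = 4 each, edgeR log2 fold change 1.78 ± 0.22, adjusted p = 0.00367). The UDP-galactose epimerase gale-1 rose (log2 fold change 1.1002 ± 0.16, adjusted p = 0.00731), as did paic-1 (log2 fold change 1.14 ± 0.18, adjusted p = 0.0121) and atic-1 (log2 fold change 0.83 ± 0.16, adjusted p = 0.0224) of purine synthesis and pnp-1 (log2 fold change 0.92 ± 0.17, adjusted p = 0.0223) and adk-1 (log2 fold change 0.49 ± 0.09, adjusted p = 0.0211) of purine salvage. The gene dsc-4, which encodes the large subunit of microsomal triglyceride transfer protein and loads lipid onto lipoproteins, rose to 1802, 1209, 1640.5 and 1482 in fasted worms, against 544, 682, 753 and 753 in fed worms (log2 fold change 1.17 ± 0.16, adjusted p = 0.00496), while the yolk lipoproteins fell. The calls of sptl-2, gale-1, paic-1 and dsc-4 were kept with any 1 library left out.

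Falls outside the lists are given as single genes. The asparagine synthetase asns-2 had 125, 87.1, 92.5 and 123 normalized counts in fasted worms, against 343, 702, 608 and 311 in fed worms (log2 fold change -2.195 ± 0.29, adjusted p = 0.00465), and the D-amino acid oxidase daao-1 had 21.8, 18.5, 22.4 and 30.9 in fasted worms, against 100.5, 114.1, 96.6 and 63.5 in fed worms (log2 fold change -1.99 ± 0.27, adjusted p = 0.00554). Neither overlapped between the groups. The long noncoding RNA tts-1 (chromosome X, 1504131 to 1504841) had 405, 251, 577 and 477 in fasted worms, against 818, 1231, 3385 and 1308 in fed worms (log2 fold change -1.98 ± 0.42, adjusted p = 0.038).

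The gene fog-3, which commits germ cells to sperm, had 42.1, 38.1, 59.97 and 50.9 normalized counts in fasted worms, against 6.97, 4.75, 4.98 and 6.84 in fed worms (log2 fold change 2.99 ± 0.32, adjusted p = 0.00178), and its call was kept with any 1 library left out. Hermaphrodites make sperm in late larval life before they turn to oocytes. The sperm list itself had none called in edgeR (3 higher and 2 lower by the unadjusted p under 0.05, and DESeq2 called 0 higher and 1 lower and limma 2 higher and 1 lower).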
